A study of Mus musculus with 6 samples.

Results

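CD4 T cells made up 161 of the 32761 cells kept from CD45+ (leukocyte) preparations of irradiated and sham-treated mouse hearts, or 0.491%. A cell was taken as a CD4 T cell when it had at least 2 UMIs (unique molecular identifiers, each counting 1 captured transcript) of Cd3e, Cd3d and Cd3g together and at least 1 Cd4 UMI. It also had to have no Cd8a, Cd8b1 or Ncr1 UMI, under 10 C1q UMIs (macrophage genes) and under 2 Cd79 UMIs (B cell genes). Irradiated STING KO hearts gave 23 and 33 such cells, irradiated WT hearts gave 15 and 27, and sham-treated WT hearts gave 24 and 39, with the counts given by library, replicate 1 first.

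The study profiled CD45+ cells by droplet single-cell RNA sequencing 28 days after the heart received 12 Gy in 1 fraction from a small-animal irradiator, or a sham procedure. The 6 libraries formed 3 groups of 2. These were irradiated mice labelled STING KO (RT STING KO), irradiated wild-type mice (RT WT) and sham-treated wild-type mice (sham WT), all on the C57Bl6J background. No sham-treated STING KO library was analysed here, so radiation and genotype were each compared in 1 setting only: RT WT against sham WT, and RT STING KO against RT WT. Age, sex, batch and the number of animals behind a library were not stated, and p-values therefore measure only the spread between these libraries.

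CD4 T cells recognise peptides on MHC class II molecules through the T cell receptor, with CD4 as co-receptor, and act mainly by helping other cells through CD40 ligand and cytokines. Naive cells circulate through lymph nodes guided by the chemokine receptor CCR7, while effector and memory cells lose it and enter tissues such as the heart, where regulatory CD4 T cells expressing FOXP3 are known to restrain inflammation. STING, encoded by Tmem173, is an adaptor of the cytosolic DNA sensing pathway that leads to type I interferon and to interferon-stimulated genes.

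The 6 libraries held 4556 to 9319 barcodes, of which 3492 to 6335 passed limits of at least 200 genes and at most 10% mitochondrial UMIs. No barcode was a CD4 T cell in more than 1 library. A CD4 T cell barcode was also present among the other barcodes of a second library in 3 of the 15 pairs of libraries, 1 barcode in each. The CD4 T cells had a median of 3788 UMIs and 1347 genes, with a range of 1299 to 41232 UMIs. A group of 20 large cells had over 10000 UMIs and together held 39.6% of all 928888 UMIs of the CD4 T cells. Many of these large cells carried transcripts of other cell types. Of the CD4 T cells, 87 had at least 1 C1q UMI, 19 of them 3 to 9, and a doublet caller marked 3. The neutrophil marker list, for example, summed to 27150 CPM (UMIs scaled to a common total per summed library) in sham WT library 2 and to 58.2 CPM in sham WT library 1. Levels are therefore mostly given per library, and the cells that carried a transcript are given for the genes that rested on few of them.

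Tmem173 transcripts were present in every group. CD4 T cells of the libraries labelled STING KO had 36.7 and 63.5 CPM, those of RT WT 51.6 and 60.7 CPM, and those of sham WT 19.4 and 30.4 CPM. Over all kept cells the values were 41.1 and 43.2 CPM in the libraries labelled STING KO, 45.7 and 42.0 CPM in RT WT and 40.4 and 33.0 CPM in sham WT. The labels do not say which part of the gene was altered, and counts from the 3′ end of a transcript do not check a change elsewhere in it.

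The rule used Cd3 and Cd4 transcripts at low counts, and its margins were thin. The median cell had 6 Cd3 UMIs and 1 Cd4 UMI, 114 cells had exactly 1 Cd4 UMI, and none had more than 5. Just inside the Cd3 limit, 10 cells with 2 Cd3 UMIs averaged 1.00 Trac UMI per cell, and just outside it 8 cells with 1 Cd3 UMI averaged 1.25. The 114 cells with 1 Cd4 UMI averaged 2.22 Trac UMIs, against 1.60 in the 433 otherwise equal cells with no Cd4 and no Cd8 UMI. Those 433 cells made up 44.9% of all 965 cells that met the Cd3 and exclusion limits. The CD4 T cells described here are only those in which a Cd4 UMI was captured. How many of the 433 cells belong to the CD4 lineage was not tested. A Cd4 UMI was seen in 0.155% of 3867 B cells and in 0.119% of 840 NK cells, whose median depths were 3455 and 2552 UMIs.

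The label was borne out by genes that the rule did not use. Trac, the constant part of the T cell receptor alpha chain, was detected in 83.2% of CD4 T cells, and Trbc2, of the beta chain, in 93.8%, against 0.802% and 1.89% of B cells. Compared with 356 CD8 T cells chosen by the mirrored rule, CD4 T cells more often carried the helper genes. Cd40lg, which encodes CD40 ligand, was found in 18.0% of CD4 and 1.97% of CD8 T cells, in 0.0776% of B cells and in no NK cell. Its mean level was 50.1 CPM in CD4 and 4.12 CPM in CD8 T cells, and it was higher in CD4 T cells in 6 of 6 libraries. The co-stimulatory receptor Icos was found in 39.1% and 23.9%, Cd28 in 72.7% and 55.3%, and Cd5, a dampener of receptor signalling, in 49.1% and 28.4% of CD4 and CD8 T cells. Tnfrsf4 (OX40) was found in 9.94% of CD4 and 1.12% of CD8 T cells. Izumo1r (folate receptor 4) was found in 12.4% and 2.81%, and Il2 in 8 CD4 T cells and 1 CD8 T cell.

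Genes of cytotoxic T cells and NK cells ran the other way. Nkg7 was found in 22.98% of CD4 and 75.8% of CD8 T cells, Klrd1 in 9.94% and 52.5%, Ly6c2 in 11.8% and 44.4%, and Ccl5 in 21.7% and 38.5%. Eomes, a transcription factor of cytotoxic lymphocytes, was found in 1.24% of CD4 and 14.9% of CD8 T cells. Runx3, which silences Cd4 in the CD8 lineage, was found in 30.4% and 58.1%, and in 20.5% of B cells. All 6 of these genes were lower in CD4 T cells in 6 of 6 libraries. Zbtb7b, which encodes the CD4 lineage factor ThPOK, separated the 2 types little, with 12.4% of CD4 and 9.55% of CD8 T cells and 8.66% of B cells. These differences follow from choosing cells by Cd4 and Cd8 and are descriptions with no test.

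**Figure D1:**
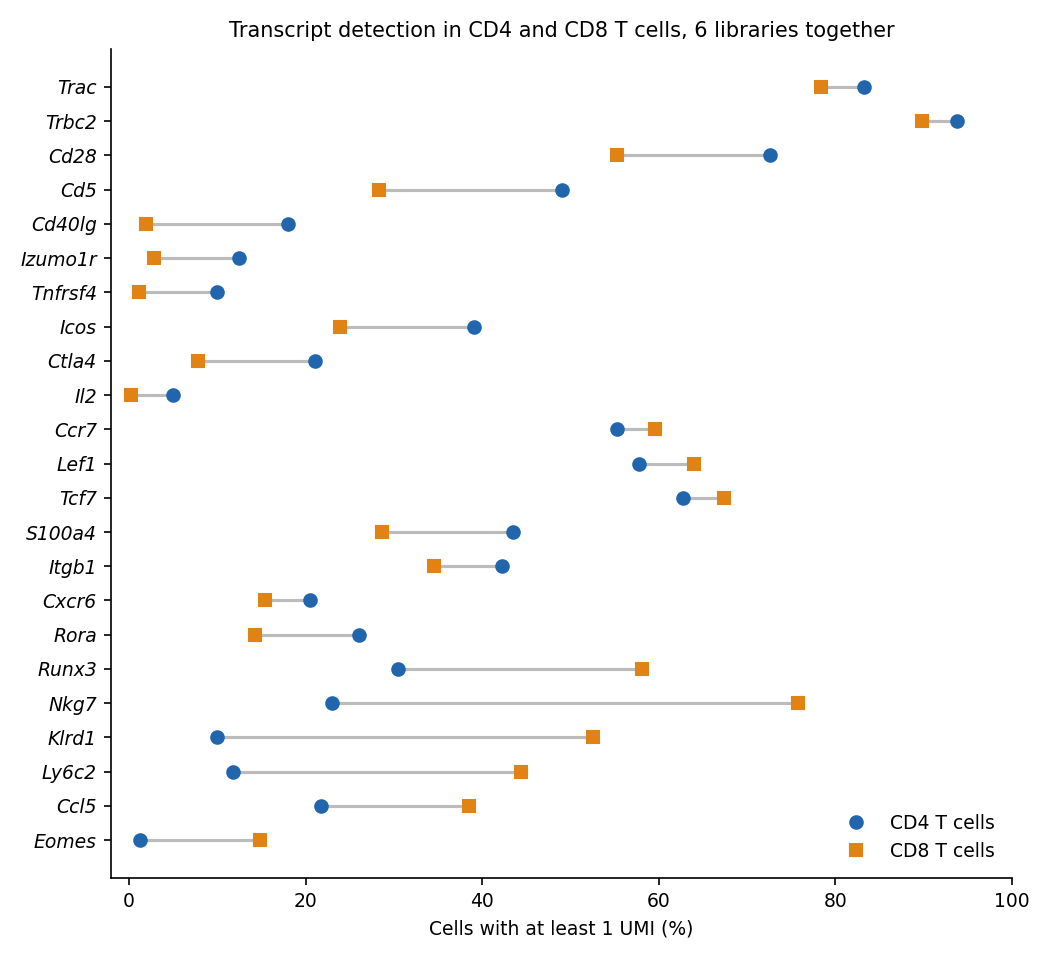
Percentage of CD4 T cells (circles, n = 161) and CD8 T cells (squares, n = 356) with at least 1 UMI of each gene, 6 libraries together. Helper genes such as Cd40lg (18.0% and 1.97%) lie to the right in CD4 T cells, and cytotoxic genes such as Nkg7 (22.98% and 75.8%) lie to the left.

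Few CD4 T cells carried the defining transcripts of a polarised helper subset. Ifng, the T helper 1 cytokine, was found in 22 cells and its regulator Tbx21 in 13. Gata3, the T helper 2 regulator that is also used in early T cell development, was found in 31, but Il4 in 1 cell and Il13 in none of 161. A count of 0 limits the share of cells with an Il13 UMI to at most 1.86%, not the share of cells that express the gene. Il17a, the T helper 17 cytokine, was found in 3 cells. Cxcr5 of follicular helper cells was found in 1 cell, Il10 in 2 and the checkpoint receptor Pdcd1 in 5. Trdc, from the gamma-delta receptor, was found in 7 cells and Zbtb16, of innate-like T cells, in 5.

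Regulatory T cells were at the limit of detection. A Foxp3 UMI was present in none of the 56 CD4 T cells of RT STING KO, in 2 of 27 in RT WT library 2 and none of 15 in RT WT library 1, and in 1 of 39 in sham WT library 2 and none of 24 in sham WT library 1. A count of 0 allows a share of cells with a Foxp3 UMI of up to 13.04% and 9.09% in the RT STING KO libraries, 20% in RT WT library 1 and 12.5% in sham WT library 1. It sets no limit on the share of regulatory T cells, since a low transcript can be missed at these depths, and with every cell thinned to 1500 UMIs no library had a Foxp3 UMI. The 2 RT WT cells had 16971 and 12194 UMIs and also carried Ctla4 (1 UMI each), Ikzf2 (12 and 2) and Tnfrsf4 (8 and 1), and the deeper one had 6 Il2ra UMIs. The sham WT cell had 3430 UMIs and none of those genes. With doublets removed, only 1 of the 2 RT WT cells was left, and the same held with C1q UMIs under 3. The RT WT cell of 12194 UMIs also held 185 UMIs of the fibroblast marker list. No B or NK cell and 1 CD8 T cell had a Foxp3 UMI. The mean share was 0% in RT STING KO and 3.70% in RT WT (exact permutation p = 1), and 3.70% in RT WT and 1.28% in sham WT (exact permutation p = 1), n = 2 libraries per group.

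The share of CD4 T cells among the leukocytes did not pass a test between groups. They formed 0.464% ± 0.100 of kept cells in RT STING KO, 0.428% ± 0.00237 in RT WT and 0.569% ± 0.0820 in sham WT (SD, n = 2 libraries each). By library the shares were 0.393% and 0.535% in RT STING KO, 0.430% and 0.426% in RT WT, and 0.511% and 0.627% in sham WT. Both RT WT libraries lay below both sham WT libraries, while RT STING KO overlapped both other groups. The difference between RT WT and sham WT was -0.141 percentage points (exact permutation p = 0.333) and that between RT STING KO and RT WT was 0.0361 points (exact permutation p = 1). With 2 libraries against 2 the smallest two-sided p is 0.333, so neither test could pass 0.05.

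Depth differed between libraries, and a Cd4 UMI is found more often in a deeper cell. Every cell was then thinned to 1500 UMIs and the whole rule, with its exclusion limits, was applied again. Cells under 1500 UMIs were dropped, and cells excluded at full depth could enter. The shares averaged 0.159% in RT STING KO, 0.213% in RT WT and 0.192% in sham WT. The difference between RT WT and sham WT was 0.0209 points, of the other sign. Between RT STING KO and RT WT it was -0.0532 points, also of the other sign. These shares rested on 7 to 13 cells a library. RT WT had 0.302% and 0.123%, which spanned the libraries of both other groups. Of the CD4 and CD8 T cells together, CD4 T cells were 30.2% ± 2.58 in RT STING KO, 34.7% ± 10.5 in RT WT and 30.3% ± 3.69 in sham WT (SD, n = 2 each). That share was 42.2% in RT WT library 2 and 27.3% in RT WT library 1, which spanned the libraries of both other groups.

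**Figure D2:**
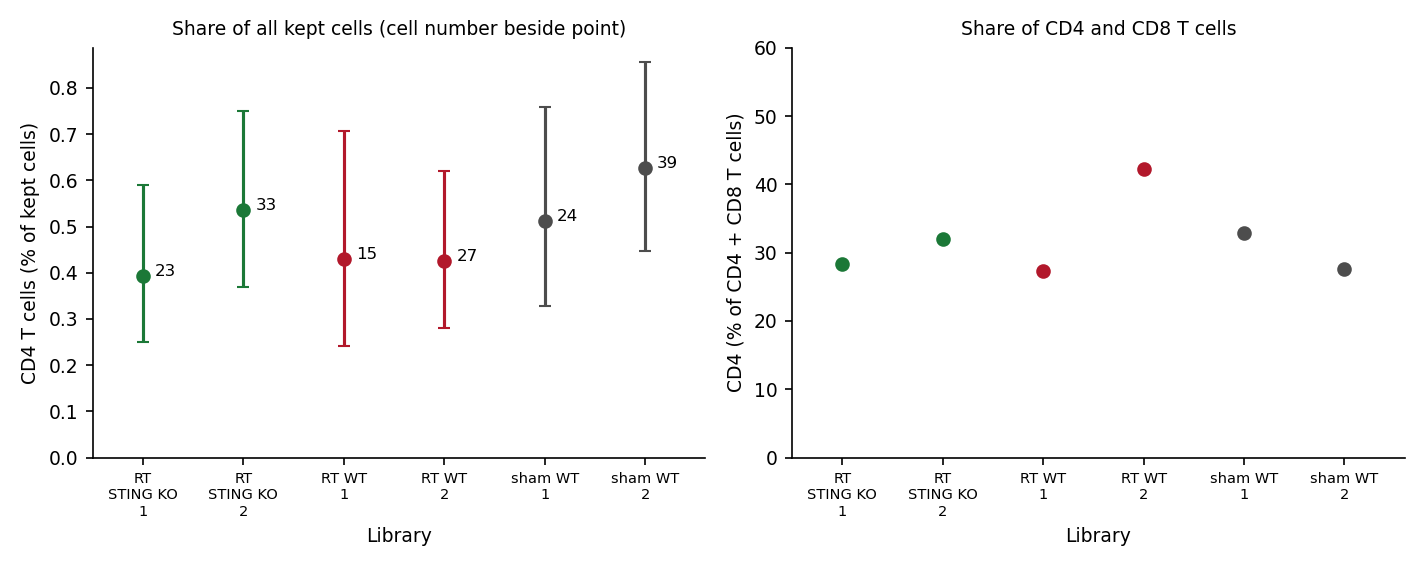
Left, CD4 T cells as a percentage of kept cells in each library, with exact 95% binomial intervals that cover counting error only and the number of cells beside each point. Right, CD4 T cells as a percentage of CD4 and CD8 T cells. On the left both sham WT libraries (0.511% and 0.627%) lie above both RT WT libraries, and RT STING KO overlaps both other groups. On the right the RT WT libraries span the others (27.3% and 42.2%).

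The CD4 T cells held both a naive-like and an effector-like part, divided here by Ccr7 against S100a4 and Cxcr6, transcripts that were chosen after values had been seen. Ccr7 without S100a4 or Cxcr6 was found in 61 cells (37.9%). S100a4, a calcium-binding protein of memory cells, or Cxcr6, a chemokine receptor of tissue-resident T cells, was found without Ccr7 in 45 cells (28.0%). Both kinds of transcript were present in 28 cells and neither in 27. In CD8 T cells the same split gave 42.1% and 18.3%. The 2 sets of CD4 T cells had median depths of 3354 and 4010 UMIs.

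Other transcripts divided with this split. Satb1, a chromatin organiser of naive T cells, was found in 91.8% of the Ccr7 cells and 17.8% of the S100a4 or Cxcr6 cells. Lef1 was found in 83.6% and 17.8%, and Tcf7, the other TCF family factor of naive and stem-like T cells, in 77.0% and 40.0%. Il7r, the survival receptor of resting T cells, was found in 73.8% and 35.6%, and the kinase Txk in 65.6% and 15.6%. Satb1, Lef1, Tcf7 and Txk were higher in the Ccr7 cells in 6 of 6 libraries, and Foxp1 and S1pr1 in 5 of 6.

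In the S100a4 or Cxcr6 cells, S100a6 was found in 88.9%, against 19.7% of the Ccr7 cells, and Ahnak in 80.0%, against 14.8%. Cd44, the hyaluronan receptor used to mark antigen-experienced cells, was found in 71.1% and 16.4%, and the integrin subunit Itgb1 in 77.8% and 16.4%. Chemokine receptors of inflamed tissue followed, with Ccr2 in 42.2% and 3.28% and Cxcr3 in 33.3% and 1.64%. Nkg7 was found in 57.8% and 3.28%, Ccl5 in 60% and 3.28%, Ifng in 35.6% and 3.28%, and Icos in 60% and 21.3%. S100a6, Ahnak, Cd44, Lgals1, Il2rb, Nkg7 and Ccl5 were higher in these cells in 6 of 6 libraries. The sets come from the same cells in which these genes were read, and no test was made.

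The S100a4 or Cxcr6 set held more of the CD4 T cells in irradiated hearts of both genotypes than in sham-treated ones. It held 26.1% and 42.4% of the CD4 T cells in RT STING KO, 33.3% and 33.3% in RT WT, and 8.33% and 23.1% in sham WT. All 4 irradiated libraries were above both sham WT libraries, and the 2 RT WT values lay between those of RT STING KO. With every cell thinned to 1000 UMIs the shares were 26.1% and 42.4% in RT STING KO, 26.7% and 33.3% in RT WT, and 16.7% and 17.9% in sham WT, in the same order. The Ccr7 set held 43.5% and 30.3% in RT STING KO, 40.0% and 29.6% in RT WT, and 58.3% and 33.3% in sham WT, and the groups overlapped. As counted, the S100a4 or Cxcr6 set of CD8 T cells was also larger in all 4 irradiated libraries than in both sham WT libraries. It held 15.5% and 24.3% in RT STING KO, 17.5% and 29.7% in RT WT, and 12.2% and 14.7% in sham WT. With CD8 T cells thinned to 1000 UMIs, RT STING KO (6.90% and 15.7%) overlapped sham WT (12.2% and 15.7%). Both RT WT libraries stayed above both sham WT libraries. No test was made on sets chosen after their values were seen.

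S100a4 transcripts were also more common in B cells of the irradiated libraries, where they serve as a background reading. An S100a4 UMI was found in 20.4% and 23.7% of B cells in RT STING KO, 18.7% and 31.5% in RT WT, and 11.4% and 13.6% in sham WT. Its part in the larger S100a4 or Cxcr6 share was not tested. The Cd44 transcript, which was not used to divide the cells, was found in 10 of 23 and 19 of 33 CD4 T cells in RT STING KO, 4 of 15 and 11 of 27 in RT WT, and 5 of 24 and 17 of 39 in sham WT, and here the groups overlapped.

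**Figure D3:**
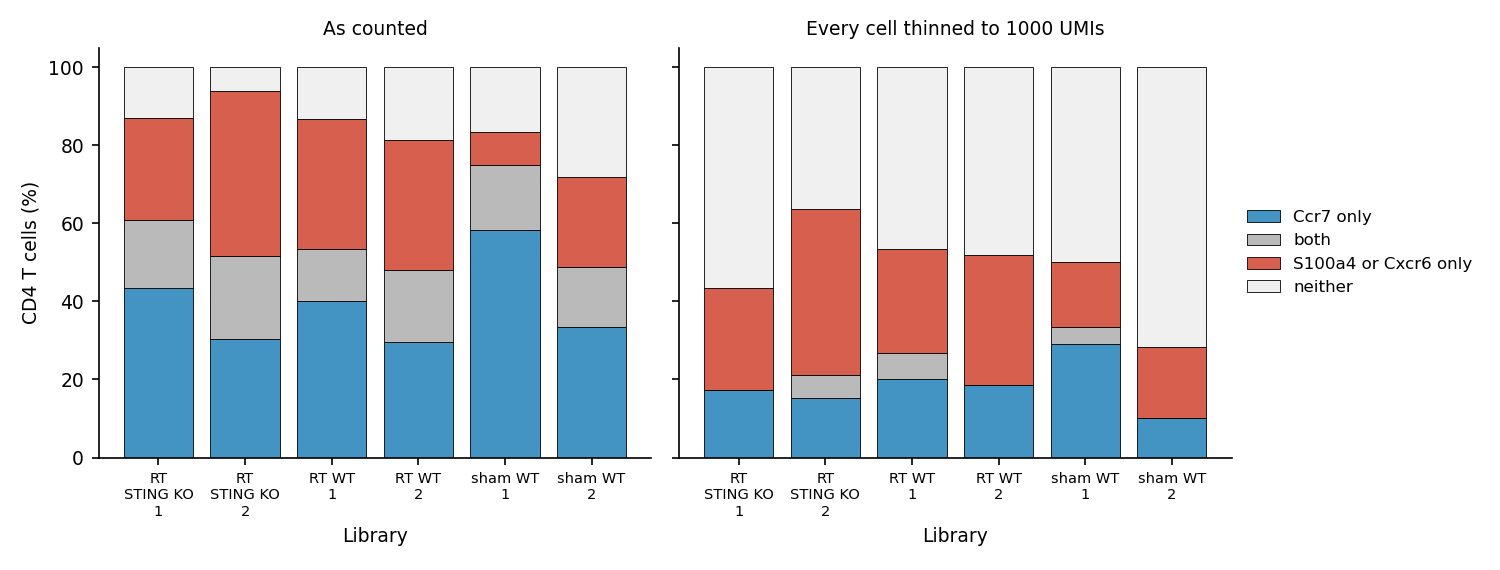
Stacked percentages of CD4 T cells in each library that carried Ccr7 only, both kinds of transcript, S100a4 or Cxcr6 only, or neither, as counted (left) and with every cell thinned to 1000 UMIs (right). S100a4 or Cxcr6 only is smallest in the sham WT libraries in both panels (8.33% and 23.1%, and 16.7% and 17.9%).

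Gene expression was compared by summing each library's CD4 T cells and fitting all 6 sums with edgeR's quasi-likelihood test, and 2712 genes passed the filter on low counts. Between RT WT and sham WT, 4 genes passed an adjusted p of 0.05 (0.147% of those tested), 3 higher (0.111%) and 1 lower (0.0369%), and 160 (5.9%) had an unadjusted p under 0.05. The 3 higher genes were Fabp4, Cav1 and Igfbp7, which are genes of endothelial cells, and the lower one was Retnla, a gene of alternatively activated macrophages and dendritic cells. All of these came from very few cells. In a sum, more cells carrying a transcript and more transcript per cell cannot be told apart, so the cells are given beside the values of the called genes. Leaving out 1 library moved the count to 0 without RT WT library 2 and to 30 without RT WT library 1. It was 69 and 24 without sham WT libraries 1 and 2, and 27 and 24 without RT STING KO libraries 1 and 2.

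Fabp4, a fatty acid carrier of capillary endothelium, had 756.6 and 2805 CPM in RT WT and 38.8 and 26.1 CPM in sham WT, a log2 fold change of 5.71 ± 0.66 (SE, edgeR adjusted p = 0.0100). In RT WT library 2, 480 of its UMIs came from a single cell of 41232 UMIs, and in RT WT library 1, 43 came from 1 cell. That cell of 41232 UMIs also held 670 UMIs of the endothelial marker list. Retnla had 0 and 11.0 CPM in RT WT and 853.3 and 704.4 CPM in sham WT (log2 fold change -6.56 ± 0.54, edgeR adjusted p = 0.00106). One cell in each sham WT library held 88 and 159 of its UMIs, and it was found in 1 of 24 and 3 of 39 cells there.

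Cav1, which shapes caveolae, had 8 and 61 UMIs in 2 cells each of the RT WT libraries and none in sham WT. Against a floor of 3 counts over the sham WT group this was at least 32.0-fold higher (edgeR adjusted p = 0.0224). Igfbp7, a secreted protein of vessels, had 114 UMIs in RT WT, in 4 cells, and 2 in sham WT. That was a ratio of 79.4 with a 95% counting interval of 21.5 to 663 (edgeR adjusted p = 0.0471). With cells over 10000 UMIs left out, 1417 genes were tested. Fabp4 was tested and did not pass (log2 fold change 4.03, edgeR adjusted p = 0.126), and Cav1, Igfbp7 and Retnla were no longer tested. With cells of at least 10 UMIs of other cell types left out, 1324 genes were tested and none of the 4 was among them. The types counted were macrophages, neutrophils, endothelial cells, fibroblasts, vessel wall (mural) cells and cardiomyocytes. Marker lists of dendritic cells, monocytes, B cells and NK cells were not counted, so their transcripts could remain. In the cells of up to 10000 UMIs Retnla had 0 and 22.9 CPM in RT WT and 0 and 7.77 CPM in sham WT. The endothelial marker list summed to 213 and 127 CPM in RT STING KO, 1049 and 3960 CPM in RT WT and 165 and 95.7 CPM in sham WT, and 90.2% and 93.4% of the RT WT sums came from 1 cell in each library.

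**Figure D4:**
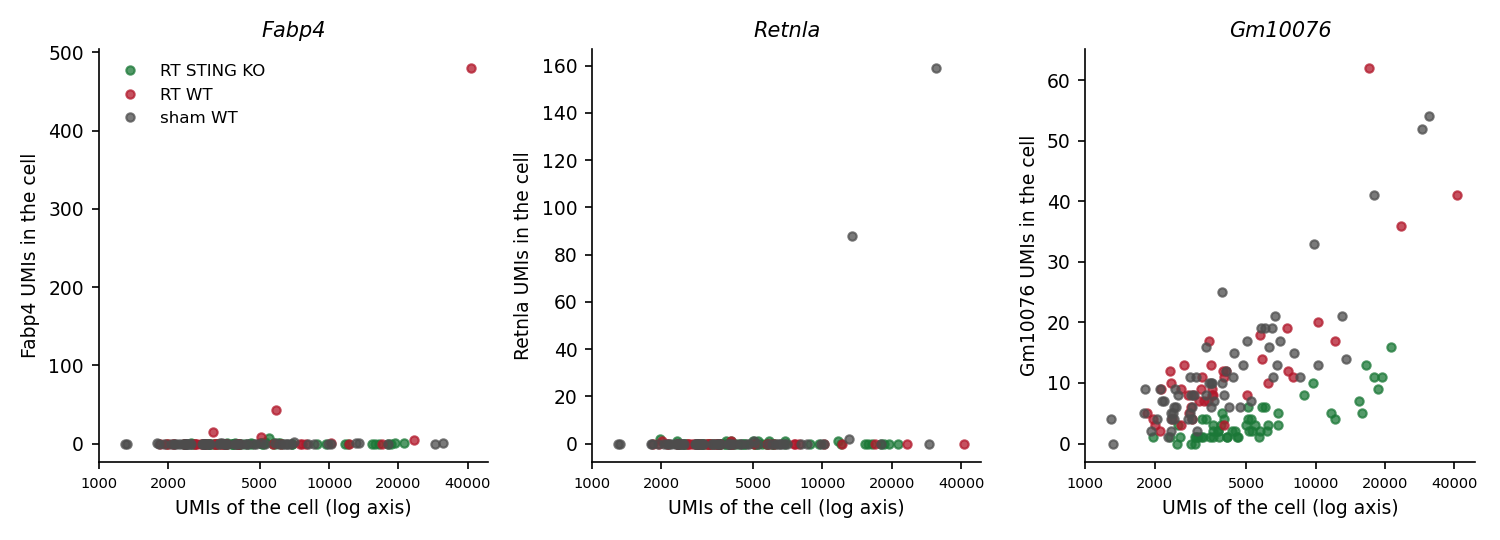
UMIs of Fabp4, Retnla and Gm10076 in each CD4 T cell (points, n = 161, coloured by group) against the total UMIs of the cell on a log axis. Fabp4 and Retnla stand out in a few cells (480 and 159 UMIs in the highest), while Gm10076 is found in 157 of 161 cells.

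Among the genes with the lowest unadjusted p that did not pass, Rhoc and Gng11 again came mainly from 1 cell. Gng11 had 98 UMIs in RT WT, 86 of them in 1 cell, and none in sham WT (edgeR adjusted p = 0.0606). Cxcl2, a neutrophil-attracting chemokine, had 51.6 and 325.8 CPM in RT WT and 1823 and 2483 CPM in sham WT, where 1 cell held 184 of 188 UMIs in library 1 (edgeR adjusted p = 0.0712). Lyz1, a lysozyme gene, had 3 UMIs in RT WT and 129 in sham WT, 111 of them in 1 cell.

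Pde3b and Gramd1a were spread over cells. Pde3b, a cyclic nucleotide phosphodiesterase expressed in T cells, was found in 7 of 23 and 10 of 33 cells in RT STING KO, 1 of 15 and 1 of 27 in RT WT, and 7 of 24 and 16 of 39 in sham WT. RT WT thus stood below both other groups, with a log2 fold change against sham WT of -3.53 ± 0.73 (SE, edgeR adjusted p = 0.128, not passed). Its levels were 73.4 and 63.5 CPM in RT STING KO, 17.2 and 5.52 CPM in RT WT, and 87.3 and 104 CPM in sham WT. Gramd1a, a cholesterol transport protein, had 110 and 99.8 CPM in RT STING KO, 34.4 and 38.7 CPM in RT WT and 107 and 152 CPM in sham WT (edgeR adjusted p = 0.268 for RT WT against sham WT).

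Interferon-stimulated genes leaned higher in irradiated CD4 T cells, but none passed the test. The 59 genes of this list that the files held summed to 5287 and 4679 CPM in RT STING KO, 6758 and 5589 CPM in RT WT, and 3607 and 3761 CPM in sham WT. All 4 irradiated libraries lay above both sham WT libraries, and both RT WT libraries lay above both RT STING KO libraries. The median cell had 4003 and 4033 CPM in RT STING KO, 4916 and 4444 CPM in RT WT, and 3606 and 3566 CPM in sham WT, in the same order. In cells of up to 10000 UMIs the sums were 4955 and 5753 CPM in RT STING KO, 7718 and 5592 CPM in RT WT, and 3805 and 4204 CPM in sham WT, and RT STING KO and RT WT overlapped. A single cell held 43.8% of the list's UMIs in RT WT library 1 and 28.5% in RT WT library 2.

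By gene, 22 members of the interferon list were tested, and 0 rose or fell in either comparison. In RT WT against sham WT, 10 of 22 were higher in both RT WT libraries than in both sham WT libraries, beside 16.9% of all genes tested. Their median log2 fold change was 0.46, beside -0.01 over all genes. In RT STING KO against RT WT, 8 of 22 were lower in both RT STING KO libraries, beside 16.4% of all genes, with a median of -0.15, beside 0.01. The 2 comparisons share the RT WT libraries.

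Ly6a, the Sca-1 antigen, had 359.8 and 331 CPM in RT STING KO, 619 and 607 CPM in RT WT and 252 and 174 CPM in sham WT. Of the 110 UMIs in RT WT library 2, 76 came from the cell of 41232 UMIs, and in cells of up to 10000 UMIs that library had 275 CPM, against 257 and 272 CPM in sham WT. In RT WT library 1, 1 cell held 16 Ly6a UMIs and another held 15, and no other cell held more than 2. The cell with 16 was also the one with 43 Fabp4 UMIs. Bst2, which encodes tetherin and holds budding virus at the membrane, had 51.4 and 109 CPM in RT STING KO, 155 and 215 CPM in RT WT and 29.1 and 47.8 CPM in sham WT. It was found in 4 of 15 and 11 of 27 cells of RT WT and in 3 of 24 and 8 of 39 of sham WT. Ifi27l2a had 719.6 and 821 CPM in RT STING KO, 929 and 989 CPM in RT WT and 630.3 and 622 CPM in sham WT. Iigp1, an interferon-inducible GTPase, had 14.7 and 4.54 CPM in RT STING KO, 499 and 88.4 CPM in RT WT and 19.4 and 8.70 CPM in sham WT. It was found in 2, 1, 3, 5, 2 and 2 cells of these libraries. In RT STING KO against RT WT, Iigp1 passed with DESeq2 (log2 fold change -5.09, DESeq2 adjusted p = 0.0185) but not with edgeR. Its interferon-gamma response list had 7 tested members, 0 called by edgeR. Of these, 3 were higher in both RT WT than in both sham WT libraries, beside 16.9% of all genes (median log2 fold change 1.08). Against RT WT, 3 were lower in both RT STING KO libraries, beside 16.4% (median -0.97).

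**Figure D5:**
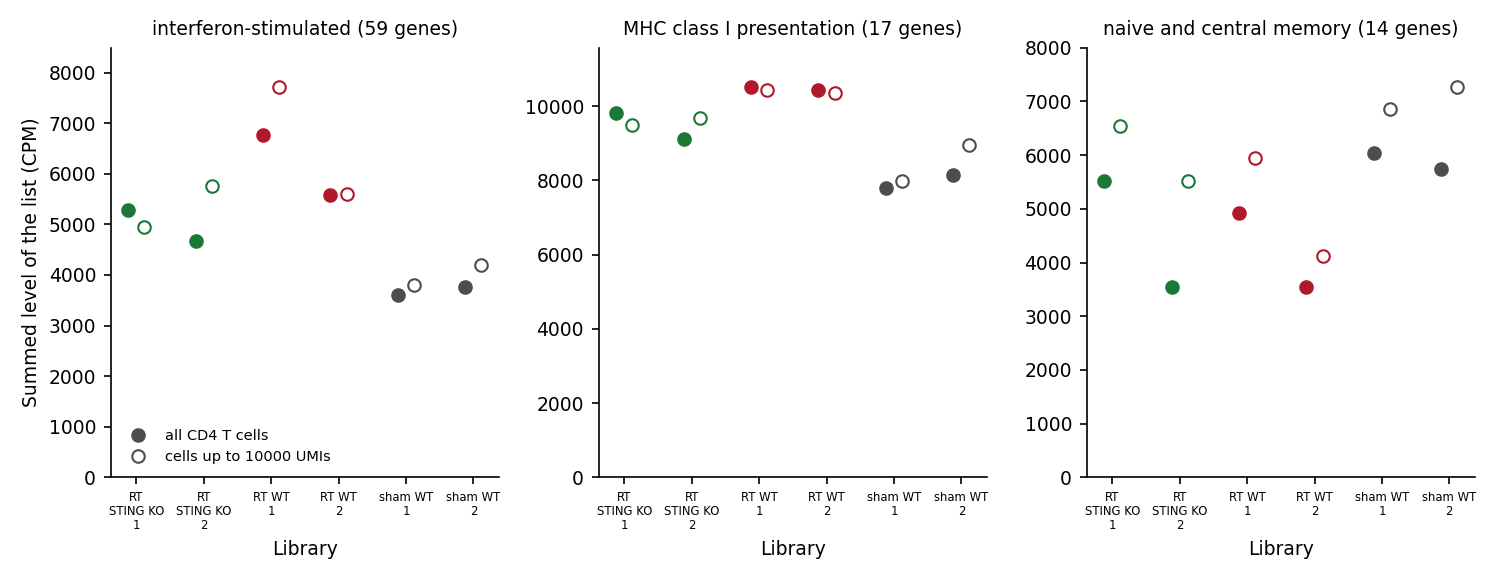
Summed level in CPM of 3 gene lists in each library, over all CD4 T cells (filled) and over cells of up to 10000 UMIs (open). For the interferon-stimulated list the 4 irradiated libraries lie above both sham WT libraries (3607 and 3761 CPM, filled) on both readings, while RT STING KO and RT WT overlap in the open points.

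The interferon-stimulated list was also read within each state. In the S100a4 or Cxcr6 cells the list summed to 8125 and 4798 CPM in RT STING KO, 10423 and 5363 CPM in RT WT, and 2630 and 5040 CPM in sham WT, from 2 to 14 cells a library. In the Ccr7 cells it summed to 3707 and 4736 CPM in RT STING KO, 4006 and 5892 CPM in RT WT, and 2687 and 4013 CPM in sham WT. The 8 Ccr7 cells of RT WT library 2 held 62623 UMIs together. Among them was the cell of 41232 UMIs that also held 670 UMIs of the endothelial marker list. RT STING KO and RT WT overlapped in both sets. RT WT lay above sham WT in the S100a4 or Cxcr6 cells, and the 2 groups overlapped in the Ccr7 cells. The S100a4 or Cxcr6 set was 5 cells in RT WT library 1, among them the cell with 43 Fabp4 UMIs, and 2 cells in sham WT library 1. These sums can therefore rest on single cells. Epsti1, an interferon-stimulated gene, was found in 62.2% of the S100a4 or Cxcr6 cells and 11.5% of the Ccr7 cells.

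MHC class I genes, which present peptides and are raised by interferons, summed to 9825 and 9117 CPM in RT STING KO, 10524 and 10437 CPM in RT WT, and 7806 and 8135 CPM in sham WT. The 3 groups did not overlap, and 0 of 16 tested members passed in either comparison. Against sham WT, 6 of 16 were higher in both RT WT libraries, beside 16.9% of all genes tested, and 1 was lower in both, beside 16.3%, with a median log2 fold change of 0.22. In RT STING KO against RT WT the members lay near the shares of all genes. There 3 of 16 were lower in both RT STING KO libraries, beside 16.4%, and 2 were higher in both, beside 16.3%. Their median log2 fold change was -0.13, beside 0.01 over all genes. The heavy chain H2-K1 had 2431 and 1979 CPM in RT STING KO, 2906 and 2507 CPM in RT WT and 1677 and 1791 CPM in sham WT. Its partner B2m had 2115 and 2151 CPM in RT STING KO, 2356 and 2562 CPM in RT WT and 1920 and 2078 CPM in sham WT. For cells of up to 10000 UMIs the list summed to 9491 and 9696 CPM in RT STING KO, 10451 and 10358 CPM in RT WT and 7989 and 8960 CPM in sham WT.

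Naive and central memory genes leaned lower after irradiation without passing. The list of 14 genes summed to 5522 and 3540 CPM in RT STING KO, 4918 and 3545 CPM in RT WT, and 6041 and 5744 CPM in sham WT, and all 4 irradiated libraries lay below both sham WT libraries. Of 13 tested members, 8 were lower in both RT WT libraries than in both sham WT libraries, beside 16.3% of all genes. Of the same 13, 1 was higher in both, beside 16.9%, and the median log2 fold change was -0.62. Ccr7 had 206 and 168 CPM in RT STING KO, 172 and 105 CPM in RT WT and 368 and 265 CPM in sham WT (log2 fold change of RT WT against sham WT -1.36, edgeR adjusted p = 0.591). Klf2, which keeps T cells in circulation, had 1322 and 1094 CPM in RT STING KO, 1995 and 1469 CPM in RT WT and 2550 and 2478 CPM in sham WT. Tcf7 had 507 and 222 CPM in RT STING KO, 327 and 110 CPM in RT WT and 514 and 326 CPM in sham WT.

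The other lists gave no called CD4 T cell gene. The immediate early and NF-kB list had 18 tested members, of which 10 were lower in both RT WT libraries than in both sham WT libraries, beside 16.3% of all genes tested, and 2 were higher in both, beside 16.9%. The median log2 fold change was -0.51. The early activation marker Cd69 had 228 and 259 CPM in RT STING KO, 481 and 88.4 CPM in RT WT, and 630.3 and 339 CPM in sham WT, and RT WT overlapped sham WT. Of the T helper 17 list, 3 members were tested, Maf, Tmem176a and Tmem176b, and each was higher in both RT WT libraries, beside 16.9% of all genes tested. Tmem176a and Tmem176b are also expressed by macrophages, whose marker list summed to 722 and 7212 CPM in RT WT and 1930 and 3548 CPM in sham WT, and its part was not tested. The p53 target list had 9 tested members, with a median of 0.43 for RT WT against sham WT and the lowest adjusted p at Phlda3 (0.769). The cell cycle list had 9 tested members, none called. Mki67, the proliferation marker, was found in 2 of 23 and 5 of 33 cells of RT STING KO, 0 of 15 and 2 of 27 of RT WT, and 1 of 24 and 4 of 39 of sham WT.

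Between RT STING KO and RT WT, 11 genes passed an adjusted p of 0.05 (0.406% of those tested), 0 higher (0.0%) and 11 lower, and 157 (5.79%) had an unadjusted p under 0.05. The first 10 were Fabp4, Cav1, Igfbp7, Gng11, Serpinh1, Timp3, Cxcl12, Tm4sf1, Fabp5 and Ly6c1, most of them genes of vessels and connective tissue. Fabp4 had 73.4 and 49.9 CPM in RT STING KO and 756.6 and 2805 CPM in RT WT (log2 fold change -4.89 ± 0.60, edgeR adjusted p = 0.0363). Serpinh1, a collagen chaperone, had 74 UMIs in RT WT, 55 of them in 1 cell, and none in RT STING KO, at least 36.8-fold lower against a floor of 3 counts over the group. Gng11 was at least 48.7-fold lower, Timp3 at least 24.3-fold, Tm4sf1 at least 21.9-fold and Cxcl12 at least 20.4-fold, each with no UMI in RT STING KO. Ly6c1 had 51.4 and 36.3 CPM in RT STING KO and 189 and 348 CPM in RT WT, with 52 of the 63 UMIs of RT WT library 2 in 1 cell.

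The count rested on single libraries. It was 0 without RT WT library 2, 0 without RT STING KO library 2 and 7 without RT STING KO library 1. It was 34 without RT WT library 1, and 44 and 45 without sham WT libraries 1 and 2. It was 1 of 1417 genes tested with cells over 10000 UMIs left out, and 2 of 1324 with cells of 10 or more UMIs of other cell types left out.

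The remaining called gene, Gm10076, was spread over cells and was singled out after its values were seen. It is annotated as a lincRNA at chr14:105681828-105682211 on the plus strand of mm10, and no function is given for it. CD4 T cells had 536 and 585 CPM in RT STING KO, 2837 and 1889 CPM in RT WT, and 2143 and 2265 CPM in sham WT, and it was found in 157 of 161 cells. The log2 fold change of RT STING KO against RT WT was -2.12 ± 0.34 (SE, edgeR adjusted p = 0.0441), and both RT STING KO libraries lay below all 4 WT libraries. It passed in 11 of 18 alternatives, with log2 fold changes of -2.46 to -1.67 and adjusted p of 2.92e-07 to 0.423. It did not pass without RT STING KO library 1, RT STING KO library 2 or RT WT library 2 (adjusted p 0.196, 0.113 and 0.0741). It passed with cells over 10000 UMIs left out (-2.17, adjusted p = 0.0114) and with cells of 10 or more UMIs of other types left out (-2.44, adjusted p = 5.32e-05).

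Gm10076 was also lower in the other cells of the RT STING KO libraries. CD8 T cells had 582 and 663 CPM in RT STING KO and 2588 and 2673 CPM in RT WT, and B cells had 447 and 519 CPM in RT STING KO and 2368 and 2585 CPM in RT WT. The difference between its CD4 and CD8 genotype effects was -0.01 ± 0.37 on the log2 scale (edgeR interaction adjusted p = 1). Where a transcript has near-identical copies elsewhere in the genome, the assignment of its reads is uncertain, which was not tested for this gene. Rpl41, a ribosomal protein gene looked at after its values were seen, had 4274 and 4715 CPM in RT STING KO, 3611 and 3418 CPM in RT WT and 3937 and 3374 CPM in sham WT CD4 T cells. Its log2 fold change of RT STING KO against RT WT did not pass the test (0.31 ± 0.27, SE, edgeR adjusted p = 0.963). In CD8 T cells Rpl41 had 4803 and 5007 CPM in RT STING KO and 3689 and 3952 CPM in RT WT, and in B cells the groups overlapped, with 3778 and 4164 CPM in RT STING KO and 3360 and 4286 CPM in RT WT.

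No gene passed the test of a different response between CD4 and CD8 T cells. In a fit of both cell types with library as a block, 0 of 4283 genes (0.0%) had a different radiation effect and 0 of 4283 (0.0%) a different genotype effect by edgeR. At an unadjusted p under 0.05 there were 97 genes (2.26%) and 85 genes (1.98%), and DESeq2 called 2 and 0. Without RT WT library 1 the counts were 33 and 29. With cells of 10 or more UMIs of other cell types left out the counts were 6 and 21. The genes of both sets were named after their values were seen. The 6 with a different radiation effect were Cd74, Cst3, H2-Ab1, Lgals1, Actb and Tmsb4x, each more negative in CD4 than in CD8 T cells. The dendritic cell marker list, which holds Cd74 and H2-Ab1, was not among the other cell types counted there. The 21 genes with a different genotype effect included S100a4, S100a6 and Lgals1, more positive in CD4 than in CD8 T cells. Cd74 and Cst3 were also more positive (2.02 and 3.02 on the log2 scale). Several ribosomal protein genes, such as Rps20 and Rpl32, had a more negative genotype effect. For S100a4 the difference of the genotype effect was 2.68 ± 0.42 on the log2 scale (SE, edgeR adjusted p = 0.000428). Among all CD4 T cells S100a4 had 632 and 1634 CPM in RT STING KO and 636 and 679 CPM in RT WT.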

How the data were processed

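Raw UMI counts per gene and barcode were used as the authors deposited them for 6 libraries (10x Genomics 3′ chemistry, 32285 genes); Cell Ranger 5.0.0, Seurat 3 and build mm10 are named, with no role given, in the submitters' processing notes. Gene positions are from GENCODE vM21. The kept cells, the CD4 and CD8 rules and the sums per library were computed here. Depth was 31650962 to 59675213 UMIs per library and 58152 to 229981 in CD4 T cells. Sums were tested with edgeR 4.0.16 (filterByExpr, TMM, glmQLFTest, group term, all 6 libraries; Benjamini-Hochberg adjustment over all genes tested), DESeq2 1.42.0 being an alternative; the edgeR fits were tested on simulated data. CPM values were scaled to the UMIs of the summed cells. Shares used two-sided exact permutation tests; intervals are exact binomial and, like floors of 3 counts, cover counting error only. Doublets were marked as the highest Scrublet scores at an expected 0.8% per 1000 cells and removed only as an alternative. Libraries were not duplicates: chi-square per degree of freedom between the replicates of a group was 36.9 to 79.4 over all kept cells. Named genes were the up to 10 called genes of largest change in each direction, the 5 of lowest p in each direction where fewer than 10 were called, a fixed list, and up to 4 of lowest p per list. Sex-linked, immunoglobulin and receptor V genes were left out of the first 2 parts. The cells, the 40 gene lists and the tests were chosen with earlier results of these data known. Alternatives were other cell limits, scalings, filters, a DESeq2 test, a replicate block and leaving out each library. Some genes are not reported here.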

Additional observations from a re-analysis of the deposited data

How the results depend on the processing

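Between RT WT and sham WT the count of called genes, 4 as reported, was 143 with no filter on low counts, 12 with a mitochondrial share of at most 5%, 1 with doublets removed, 0 without cells holding a Trdc or Zbtb16 UMI, 7 with DESeq2 and 2 with only the 4 libraries compared. Between RT STING KO and RT WT the count, 11 as reported, was 123 with no filter, 0 with doublets removed and 0 without cells holding a Trdc or Zbtb16 UMI. The 3 alternatives chosen after seeing the data (cells over 10000 UMIs left out, cells with 10 or more UMIs of other cell types left out, every T cell thinned to 1000 UMIs) gave 0, 0 and 1 for RT WT against sham WT, and 1, 2 and 2 for RT STING KO against RT WT. For the CD4 and CD8 difference of the radiation effect, 0 as reported, the count was 29 with no filter, 1 without Trdc or Zbtb16 cells, 2 with DESeq2, and 2, 6 and 1 under those 3 alternatives. For the genotype effect, 0 as reported, it was 24 with no filter and 21 without cells of 10 or more UMIs of other cell types. Leaving out 1 library gave 0 to 69 and 0 to 45 called genes in the 2 comparisons and 0 to 33 and 0 to 29 for the differences. The cause of these changes was not tested.

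As to pairing, libraries of the same number deviated together with correlations of 0.186 between RT WT and sham WT, 0.0777 between RT STING KO and sham WT and 0.00618 between RT STING KO and RT WT. The labels do not say whether the number marks a shared batch, and not every correlation was over 0.1, so the libraries were not treated as paired. The replicate block gave 12 called genes for RT WT against sham WT and 10 for RT STING KO against RT WT.

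The share of kept cells, RT WT minus sham WT, was -0.210 points at 5% mitochondrial UMIs and 0.0209 and 0.00850 points with cells thinned to 1500 and 1000 UMIs. RT STING KO minus RT WT was 0.159 points at 5% and -0.0532 points at 1500 UMIs. The CD4 share of CD4 and CD8 T cells, RT STING KO minus RT WT, was -16.7 points at 5%. That value rested on 3 CD4 and 10 CD8 T cells in RT WT library 1 and on 4 and 2 in RT WT library 2. No called value reversed under the alternatives run. Ly6a in RT WT against sham WT, not called as reported (log2 fold change 1.46), passed at 5% (log2 fold change 3.24, edgeR adjusted p = 0.0447). That setting left 3 and 4 CD4 T cells in the RT WT libraries, and Ly6a passed in no other alternative. Its log2 fold change was 0.835 with cells over 10000 UMIs left out. It was 0.236 with cells of 10 or more UMIs of other cell types left out. With 15 to 39 cells a library, depth limits every gene that under 1 in 10 cells carry.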

Other observations

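Cells that met every limit but 1 give the size of what the rule set aside. C1q UMIs of 10 or more set aside 94 cells with a Cd4 UMI and 2 or more Cd3 UMIs, Cd79 UMIs of 2 or more set aside 73, a Cd8 UMI 15 and an Ncr1 UMI 6. The 94 cells averaged 2.70 Trac UMIs and the 73 cells 2.81.

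Both Xist and Y-linked transcripts were present in every library. CD4 T cells with Xist only and with Y-linked transcripts only numbered 11 and 5, and 14 and 9, in RT STING KO, 3 and 3, and 14 and 5, in RT WT, and 5 and 8, and 13 and 6, in sham WT.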
